A study of Mus musculus with 4 samples.

Results

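The 10 genes Hgf, Met, Egfr, Egf, Tgfa, Hbegf, Areg, Osmr, Il6ra and Il6st encode ligands and receptors that act in liver regeneration. They were taken by name, and each was matched to exactly 1 probe set, so that 10 of the 29432 genes tested are described here. Liver RNA of 4 untreated C57BL/6 mice aged 8 weeks was measured on MoGene 2.0 ST arrays, whose probes lie along the whole transcript. The groups were FF, the control, and KO, a knockout of Gdown1, with 2 biological replicates each, all killed around midday. Gdown1 is the product of Polr2m and binds RNA polymerase II. The labels call FF only a control, while the header of the authors' deposited table names the compared groups Alb-cre and f/f. The albumin promoter drives Cre in hepatocytes, the main cell of the liver, and f/f is the usual sign for a floxed gene without a statement on Cre. The sex of the mice is not given in the labels, and a Cre line with an intact target gene was not among the samples, so Cre and the deletion cannot be told apart.

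Hepatocytes rarely divide, but they re-enter the cell cycle after loss of liver tissue, and 3 ligand and receptor systems are known for their part in this. Hepatocyte growth factor, made by the non-parenchymal cells of the liver such as stellate and endothelial cells, is secreted as an inactive precursor, cut by proteases and bound by MET on hepatocytes. The EGF receptor, abundant on hepatocytes, binds EGF, TGF-alpha, HB-EGF and amphiregulin, which are made as membrane-bound precursors and shed. The interleukin-6 receptor, the product of Il6ra, and the oncostatin M receptor each pair with gp130, the product of Il6st, and signal through JAK kinases and STAT3. MET and the EGF receptor are tyrosine kinases that signal through Ras, ERK and PI3K.

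The 4 arrays had similar distributions, with medians from 2.88 to 2.92 on the log2 scale, and correlated across probe sets with a Pearson's r of 0.984 within FF, 0.986 within KO and 0.972 to 0.976 between groups. The few arrays limit the precision of every value. The targeted gene Polr2m lay at 7.35 and 7.38 in FF and at 6.35 and 6.18 in KO, a log2 fold change of -1.10 ± 0.12 (SE, limma adjusted p = 0.0215). All 10 hepatocyte markers, from Alb to Asgr1, lay far above background, as the label of the tissue requires. Background was set at 2.82, the level under which 95% of 1089 olfactory receptor genes lay, since liver is not known to express them.

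Of the 10 genes, the ligand gene Hgf and the receptor gene Osmr rose in KO liver, 2.04-fold and 2.31-fold on the linear scale, and the receptor gene Il6ra fell, 2.03-fold. The other receptor genes did not pass the test, with Met and Egfr lower by mean and Il6st higher. The KO means of the EGF receptor ligand genes Egf, Tgfa, Hbegf and Areg lay within 0.1 of the FF means. Single arrays lay further off, by up to 0.35 for Tgfa. By limma with Benjamini-Hochberg adjustment over all genes, 2 of the 10 rose and 1 fell, against 0.996% and 0.778% of all genes, or 1.77% in either direction. These shares are not fully alike, since 2 of the 10 but 14171 of all 29432 genes had a mean under background. Both KO arrays lay above both FF arrays for 3 of the 10 (Hgf, Osmr and Il6st) and below both for 3 (Il6ra, Met and Hbegf), beside 21.6% and 25.0% of all genes. The median log2 change was 0.00 over the 10 genes and -0.02 over all genes. The genes were chosen with results of these arrays known, so these counts describe them and are no test of the group. The plot of each gene by array shows the values behind these counts.

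**Figure D1:**
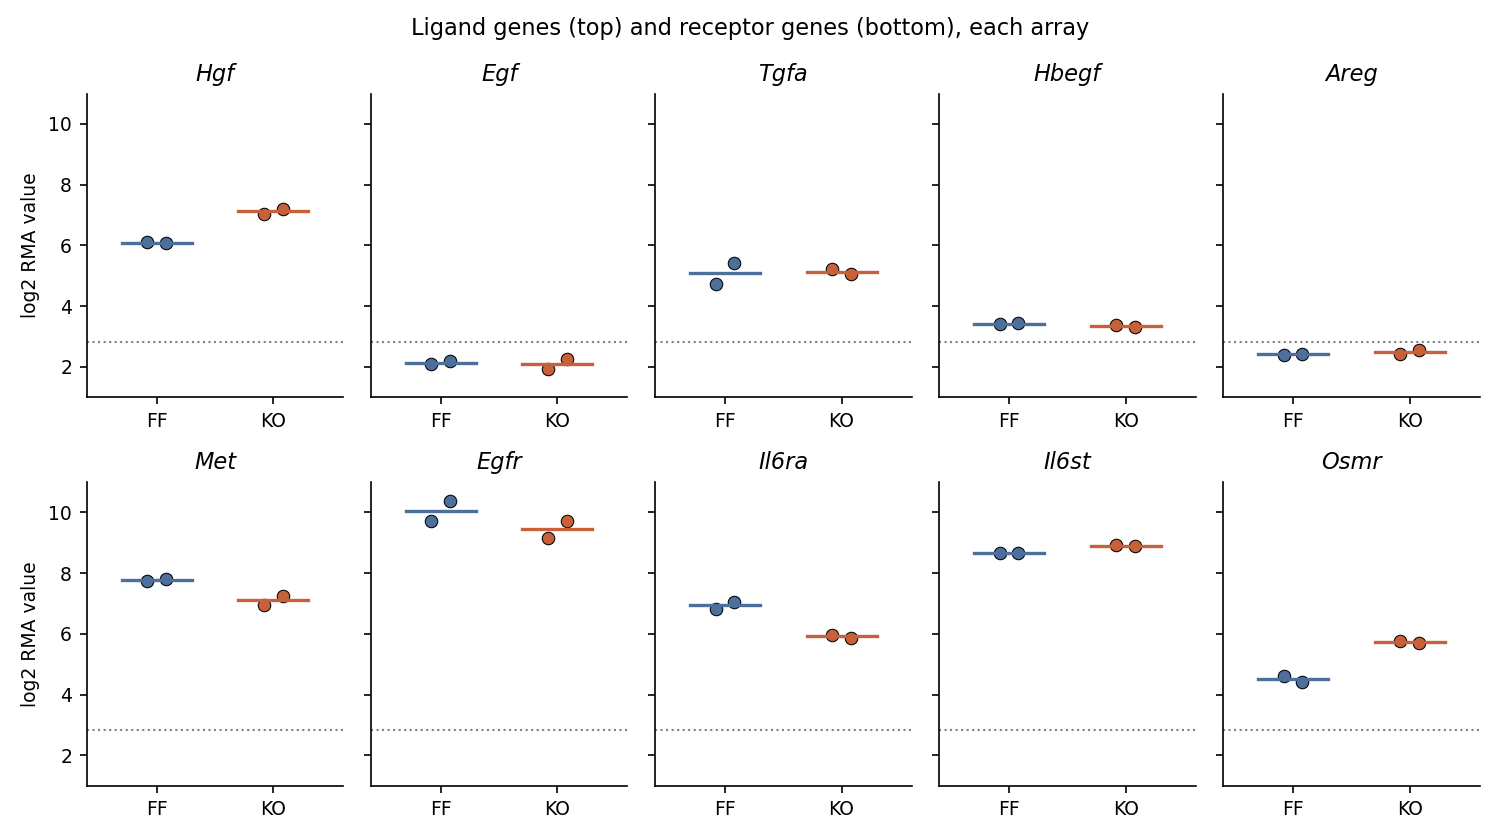
Log2 RMA value (vertical axis) of the 5 ligand genes in the upper row and the 5 receptor genes in the lower row on each of the 2 FF and 2 KO arrays (points), with group means (bars) and the background level of 2.82 (dotted line). Hgf and Osmr are higher on both KO arrays and Il6ra and Met lower, while Egf and Areg lie under the dotted line; levels of different genes come from different probes and cannot be ranked.

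Hgf, the ligand of MET, lay at 6.11 and 6.08 on the FF arrays and at 7.04 and 7.19 on the KO arrays. The KO arrays were thus both higher, and the arrays of a group lay within 0.2 of each other. The log2 fold change was 1.03 ± 0.12 (SE, n = 2 arrays a group), or 2.04-fold, with a 95% interval from 0.73 to 1.32 and a limma adjusted p of 0.0254. Hgf is on chromosome 5 from 16553495 to 16619439 (GRCm38.p6). Its receptor gene Met, on chromosome 6, moved the other way by mean, from 7.74 and 7.82 in FF to 6.95 and 7.25 in KO. Both KO values of Met were the lower ones, but the log2 fold change of -0.68 ± 0.14 (95% interval from -1.04 to -0.32) did not pass over all genes, with a limma adjusted p of 0.0926 and an unadjusted p of 0.00361.

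Egfr, the receptor gene on chromosome 11, lay at 9.72 and 10.38 in FF and at 9.17 and 9.73 in KO. The groups overlapped, since the higher KO array stood just above the lower FF array, and both groups were spread over more than 0.5. The log2 fold change of -0.60 ± 0.28 did not pass (limma adjusted p = 0.356), and its 95% interval from -1.28 to 0.09 allows both a fall of more than 2-fold and no change. With any single array left out it ran from -0.92 to -0.27, so its size is not settled.

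The ligand genes of the EGF receptor were dim or little changed. Tgfa, which encodes TGF-alpha, lay at 4.74 and 5.43 in FF and at 5.22 and 5.05 in KO, with the KO arrays between the FF arrays. Its log2 fold change was 0.05 ± 0.24, with a 95% interval from -0.54 to 0.64 (limma adjusted p = 0.950). Hbegf, for HB-EGF, lay at 3.42 and 3.43 in FF and at 3.37 and 3.31 in KO, a log2 fold change of -0.09 ± 0.11 with an interval from -0.37 to 0.19 (limma adjusted p = 0.774). Hbegf stood a little above background on every array, and its KO arrays were the lower ones by a small margin. Areg, for amphiregulin, lay at 2.40 and 2.42 in FF and at 2.42 and 2.54 in KO. Egf lay at 2.08 and 2.19 in FF and at 1.92 and 2.25 in KO. Areg and Egf were under the background level of 2.82 on all 4 arrays, so a low expression that changed would not show. Their intervals ran from -0.22 to 0.35 for Areg and from -0.42 to 0.32 for Egf.

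The receptor genes of the interleukin-6 family moved apart. Osmr, which encodes the specific chain of the oncostatin M receptor, lay at 4.61 and 4.41 in FF and at 5.75 and 5.69 in KO. Both KO arrays were higher by over 1, a log2 fold change of 1.21 ± 0.13 or 2.31-fold (95% interval from 0.89 to 1.52, limma adjusted p = 0.0195). Osmr is on chromosome 15 from 6813568 to 6874968 (GRCm38.p6). Il6ra, for the chain that binds interleukin-6, lay at 6.82 and 7.06 in FF and at 5.97 and 5.87 in KO. Both KO arrays were lower, a log2 fold change of -1.02 ± 0.13, which is 2.03-fold lower (95% interval from -1.35 to -0.69, limma adjusted p = 0.0311). Il6ra is on chromosome 3 from 89869324 to 89913196 (GRCm38.p6). Il6st, for the shared chain gp130, lay at 8.66 and 8.67 in FF and at 8.92 and 8.88 in KO. The KO arrays of Il6st were higher by a small step, and its log2 fold change of 0.24 ± 0.11 did not pass (95% interval from -0.04 to 0.52, limma adjusted p = 0.367).

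**Figure D2:**
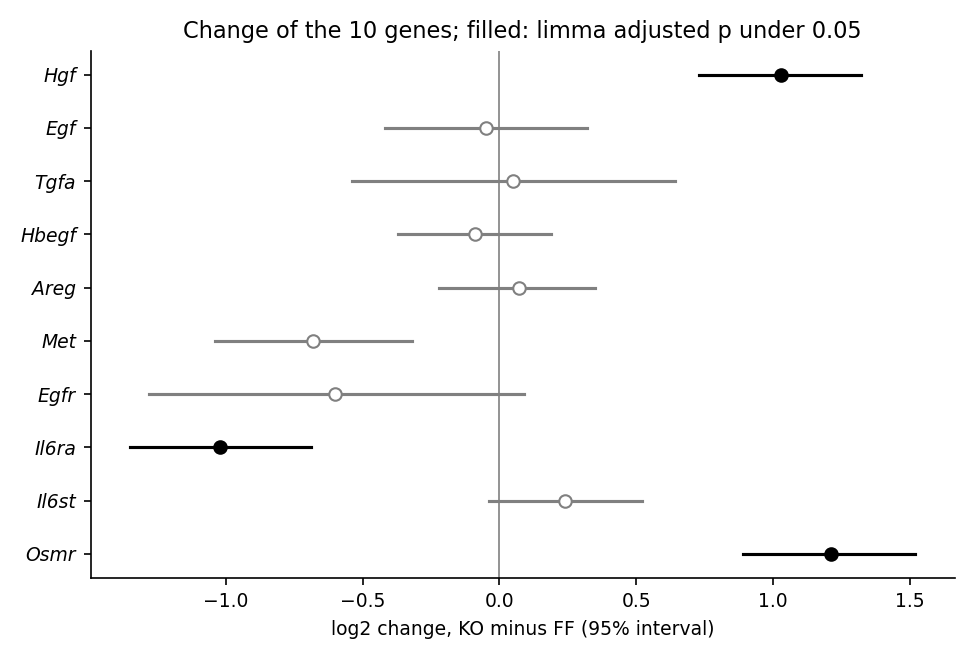
Log2 change, KO minus FF (horizontal axis), of the 10 genes with its 95% interval from limma, not adjusted for the number of genes; filled points passed an adjusted p of 0.05. Osmr (1.21), Hgf (1.03) and Il6ra (-1.02) are filled, and the interval of Met lies below 0 while that of Egfr crosses it.

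The 3 calls were not kept under every setting. A fit to all probe sets also re-estimates the variance shared across features, so it differs in more than their number. With all 41345 probe sets tested in place of named genes the adjusted p was 0.0829 for Osmr, 0.0929 for Hgf and 0.0971 for Il6ra, and without any single array it lay from 0.163 to 0.343 for these genes; in both cases limma called 0 of the 10, with 4 at an unadjusted p under 0.05 in the first (5959 of all probe sets) and 4 or 5 in the second (3364 to 3958 of 29432 genes). Without a single array limma called none of the 29432 genes, while the log2 changes stayed from 0.95 to 1.10 for Hgf, from 1.11 to 1.31 for Osmr and from -1.14 to -0.90 for Il6ra.

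The authors' deposited table, in which the averages were made in a way the sources used here do not describe, gave the same direction for each called gene, with its f/f taken as FF and its Alb-cre as KO. Its signed fold change was 1.90 for Hgf, 1.89 for Osmr and -2.34 for Il6ra in the authors' deposited table. Egfr was at -1.72 and Met at -1.46 in the authors' deposited table. Il6st, at 1.00, was without a difference there, and Areg had a sign opposite to that of the value table, at -1.08 in the authors' deposited table.

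The sequence before the start of the 3 called genes is shown because Hgf and the receptor genes differed in its CpG content. RefSeq windows of 250 bases before an annotated transcript start (GRCm38.p6) were available for 9 of the 10 genes. They are printed 5′ to 3′ on the strand of the gene, with each CpG in capitals. The windows lie at chr5:16553245-16553494 on the plus strand for Hgf, chr15:6874314-6874563 on the minus strand for Osmr and chr3:89913197-89913446 on the minus strand for Il6ra. That of Osmr lies inside the outer bounds of the gene, since another transcript starts further upstream.
Hgf: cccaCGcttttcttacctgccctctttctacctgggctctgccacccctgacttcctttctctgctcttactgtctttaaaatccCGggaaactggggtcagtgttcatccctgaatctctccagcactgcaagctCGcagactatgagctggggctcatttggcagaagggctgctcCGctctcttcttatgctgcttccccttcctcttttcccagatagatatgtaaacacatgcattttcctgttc
Osmr: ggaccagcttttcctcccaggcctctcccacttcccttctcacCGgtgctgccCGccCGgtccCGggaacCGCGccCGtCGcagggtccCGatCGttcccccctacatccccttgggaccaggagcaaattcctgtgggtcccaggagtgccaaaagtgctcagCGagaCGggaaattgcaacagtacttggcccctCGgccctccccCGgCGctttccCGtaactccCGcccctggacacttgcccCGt
Il6ra: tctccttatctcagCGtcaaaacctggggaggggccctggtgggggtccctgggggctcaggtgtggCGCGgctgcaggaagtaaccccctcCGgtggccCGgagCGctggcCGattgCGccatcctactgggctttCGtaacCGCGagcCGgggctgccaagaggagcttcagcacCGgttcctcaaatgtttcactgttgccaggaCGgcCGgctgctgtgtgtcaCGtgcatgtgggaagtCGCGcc

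The Hgf window held 4 CpGs, and a second start of Hgf had 5, beside a median of 6 over 32851 windows of the same length. Osmr and Il6ra held 18 each, a number that 21.7% of all windows reach. Met, Egfr and Il6st had 24, 11 and 26, so that each receptor gene lay above that median, whichever way its RNA differed. Among the other ligand genes Tgfa had 19 and Areg 15, and the pair of Egf windows had 0 and 15. Matches were sought on both strands to TTCNNNGAA, the letters bound by STAT factors, to TGANTCA (AP-1), CCAAT (the CCAAT box), TATAAA (the TATA box) and GGGCGG (the GC box), which 7.02%, 6.75%, 33.8%, 12.4% and 32.7% of all windows hold. Osmr had 2 GC boxes, starting 198 and 23 bases before the transcript start, and the Hgf and Il6ra windows had no match to these letters. Met had 3 GC boxes and 1 match to the AP-1 letters, 54 bases before its start, and Areg had a TATAAA 31 bases before its start. None of the 9 genes had the STAT letters in these windows.

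Other genes of the same pathways were read from 7 lists, of which 116 of 117 genes were measured. Of these, 3 rose and 4 fell, beside 0.996% and 0.778% of all genes, and their median log2 change was 0.02. The shares are not fully alike, since 9 of the 116 but 14171 of all 29432 genes had a mean under background. At an unadjusted p under 0.05 stood 34 of the 116, beside 4998 of all 29432 genes, against which the unadjusted counts of the single lists are to be read. Among 15 genes that activate HGF or work with MET, 1 rose and 1 fell, and the median was 0.21. Hgfac, which encodes a protease that activates HGF, lay at 7.86 and 8.11 in FF and at 6.89 and 7.0 in KO, a log2 fold change of -1.04 ± 0.14 (limma adjusted p = 0.0307). Cd44, a surface protein of which some forms act as a MET co-receptor, lay at 3.41 and 3.46 in FF and at 4.60 and 4.37 in KO, a log2 fold change of 1.05 ± 0.13 (limma adjusted p = 0.0290). Both KO arrays were thus higher than FF for Hgf and lower for Hgfac. The genes of other proteases that can activate HGF did not pass limma and differed among themselves, with log2 changes of 1.51 for St14, 0.32 for Plat, 0.03 for Plau and -0.08 for Hpn, all picked after their values were seen.

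Among 15 partners of the EGF family 0 rose and 1 fell, with 7 at an unadjusted p under 0.05 and a median of 0.08. The 1 gene that fell was Errfi1, which encodes MIG6, an inhibitor of the EGF receptor that is itself induced by receptor activity. It lay at 10.61 and 10.74 in FF and at 9.55 and 9.62 in KO, a log2 fold change of -1.09 ± 0.12 (limma adjusted p = 0.0211). None of the 18 measured genes of the interleukin-6 family and its JAK and STAT signalling passed limma, with 2 at an unadjusted p under 0.05 and a median of -0.03. The largest log2 changes there were 0.43 for Jak1, the kinase of gp130, and 0.35 for the ligand gene Clcf1, both higher on the 2 KO arrays. Picked after their values were seen, Il6 itself lay under background on all arrays, with a highest value of 2.05, and Osm, the ligand of OSMR, lay at 2.93 and 2.94 in FF and at 2.96 and 2.85 in KO. Stat3 had a log2 change of -0.08 ± 0.14 and its feedback inhibitor gene Socs3 one of -0.03 ± 0.24. The FF arrays of Socs3 lay apart, at 4.23 and 3.51, and its 95% interval from -0.62 to 0.56 allows a change in either direction.

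Downstream of the receptors, 0 of 20 genes of the Ras, ERK and PI3K cascade passed limma (4 at an unadjusted p under 0.05, median 0.01). The adaptor gene Gab2 had the largest log2 change, at 0.73 ± 0.23, and was higher on both KO arrays (limma adjusted p = 0.198). Of 15 genes induced by ERK signalling, 1 fell, Phlda1, with a log2 fold change of -1.48 ± 0.18 (limma adjusted p = 0.0260), from 7.22 and 6.80 in FF to 5.43 and 5.63 in KO. The other 14 did not pass, among them Dusp6, a phosphatase that dampens ERK and was picked after its values were seen, at 0.75 ± 0.27. Of 15 STAT3 targets 1 rose, Lcn2, an iron-carrier-binding protein of the acute phase, from 4.35 and 4.67 in FF to 7.21 and 6.48 in KO, a log2 fold change of 2.34 ± 0.26 (limma adjusted p = 0.0213). The STAT3 list had a median of 0.01, with 9 genes higher by mean in KO and 6 lower. Among genes picked after their values were seen, the fibrinogen genes Fga, Fgb and Fgg lay from 0.02 to 0.17. Hp and Hpx of the same list lay at -0.23 and -0.25, lower on both KO arrays. Of 18 other growth factor genes of liver regeneration, the receptor gene Notch1 rose by 0.89 ± 0.14 (limma adjusted p = 0.0493), and Vegfa, a growth factor for endothelium, fell by 0.94 ± 0.13 (limma adjusted p = 0.0319). With cyclic loess 0 genes of that list rose, so Notch1 was not called there.

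**Figure D3:**
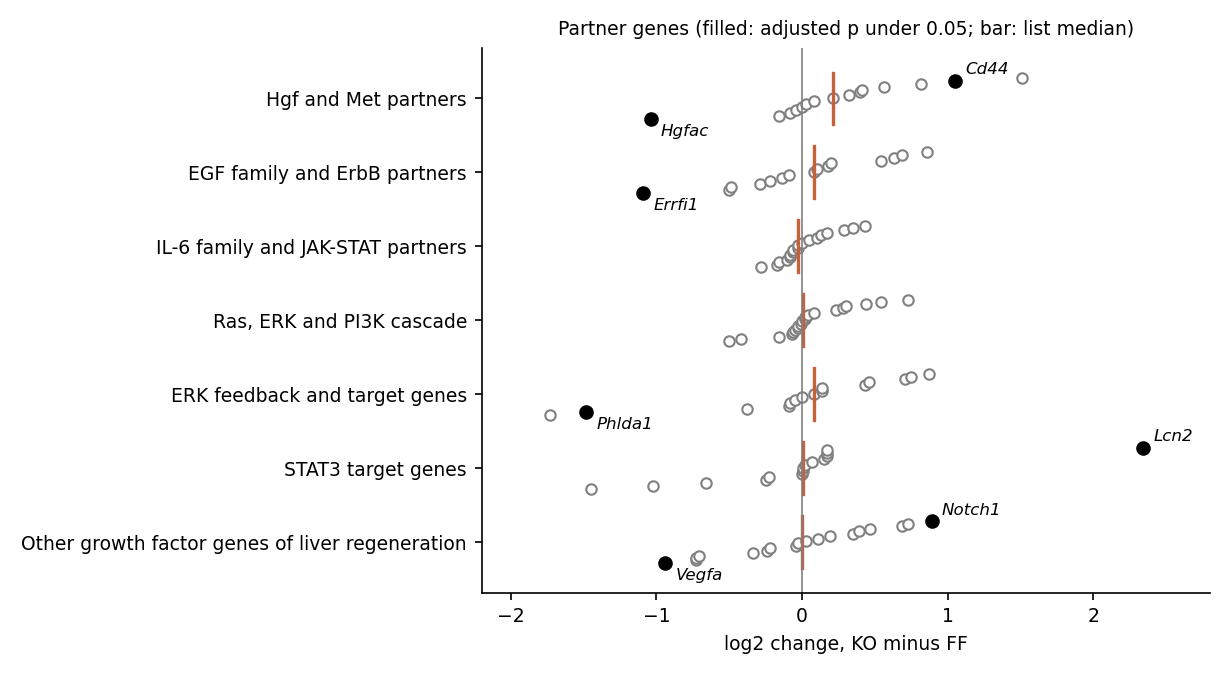
Log2 change, KO minus FF (horizontal axis), of each measured gene of the 7 pathway lists; filled, named points passed a limma adjusted p of 0.05, open points did not, and bars are list medians. The medians lie between -0.03 and 0.21, and 7 genes are filled, from Phlda1 at -1.48 to Lcn2 at 2.34.

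Markers of the liver's cell types were read beside these genes, and 2 of 72 passed limma, beside 1.77% of all genes. Of the 72, 18 had a mean under background, beside 14171 of all 29432 genes. Of all 29432 genes, 13527 had the higher mean in KO and 15889 the lower, and 21.6% lay above FF on both KO arrays. In whole liver, fewer cells of a type and less RNA per cell cannot be told apart. Hepatocyte markers were lower by mean in KO for 10 of 10, although none passed limma (3 at an unadjusted p under 0.05), with a median log2 change of -0.14. The log2 of their summed level was 15.07 on both FF arrays and 14.90 and 14.89 in KO. The sum is over linear values, so the brightest genes of a list weigh most in it. Of 10 stellate cell markers 9 were higher by mean and 1 rose, Reln, which encodes the secreted protein reelin, at 0.91 ± 0.12 (limma adjusted p = 0.0307). Their summed level was 10.50 to 10.70 in FF and 11.21 to 11.52 in KO. The brightest gene of this list, Dcn, lay at 9.95 and 9.71 in FF and at 10.77 and 10.53 in KO. All 10 markers of Kupffer cells and macrophages were higher on both KO arrays, with a median of 0.84, but none passed limma (6 at an unadjusted p under 0.05), and their summed level was at most 10.10 in FF and 10.50 to 11.14 in KO.

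Cholangiocyte markers were higher by mean for 10 of 10, with 1 that rose, the keratin gene Krt23, at 1.31 ± 0.14 (limma adjusted p = 0.0186). Their summed level was 7.61 to 8.17 in FF and 8.88 to 9.27 in KO, with Cftr and Cldn7 among those under background on all arrays. This sum mostly follows the brightest gene of the list, Spp1, at 6.45 and 7.54 in FF and at 8.67 and 8.27 in KO. Sinusoidal endothelial markers, which include sources of HGF, had a median of 0.08 with none past limma (3 at an unadjusted p under 0.05), and a summed level of 10.52 to 10.62 in FF and 10.68 to 10.69 in KO. Lymphocyte and neutrophil markers had 0 calls (0 at an unadjusted p under 0.05), a summed level of 6.32 to 6.37 in FF and 6.12 to 6.51 in KO, and 6 of 12 under background on all arrays: Cd8a, Ly6g, Mpo, Ncr1, S100a8 and S100a9. Proliferating cell markers were higher by mean for 9 of 10 and lower for 1, and 7 lay above FF on both KO arrays, beside 21.6% of all genes. They had 0 calls (3 at an unadjusted p under 0.05), a median of 0.43 and a summed level of 6.20 to 6.27 in FF and 6.64 to 6.75 in KO. Of these markers 5 had a mean under background, and Birc5, Bub1 and Ccnb1 were under it on all arrays.

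The marker lists were read on KO arrays 1 and 2 against the FF mean. Macrophage markers stood on average 1.21 and 0.42 higher, cholangiocyte markers 0.93 and 0.57, stellate markers 0.74 and 0.35, proliferating cell markers 0.45 and 0.37, and endothelial markers 0.18 and 0.13. Hepatocyte markers were at -0.23 and -0.27, and lymphocyte and neutrophil markers at 0.12 and -0.20. Hgf stood 0.95 and 1.10 higher, Osmr 1.24 and 1.17 higher, and Il6ra at -0.97 and -1.07 on KO arrays 1 and 2. Met was at -0.83 and -0.53 and Egfr at -0.88 and -0.32, lower on KO array 1 in both cases. The part of cell makeup in the changes of Hgf, Osmr, Il6ra and Met was not tested.

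**Figure D4:**
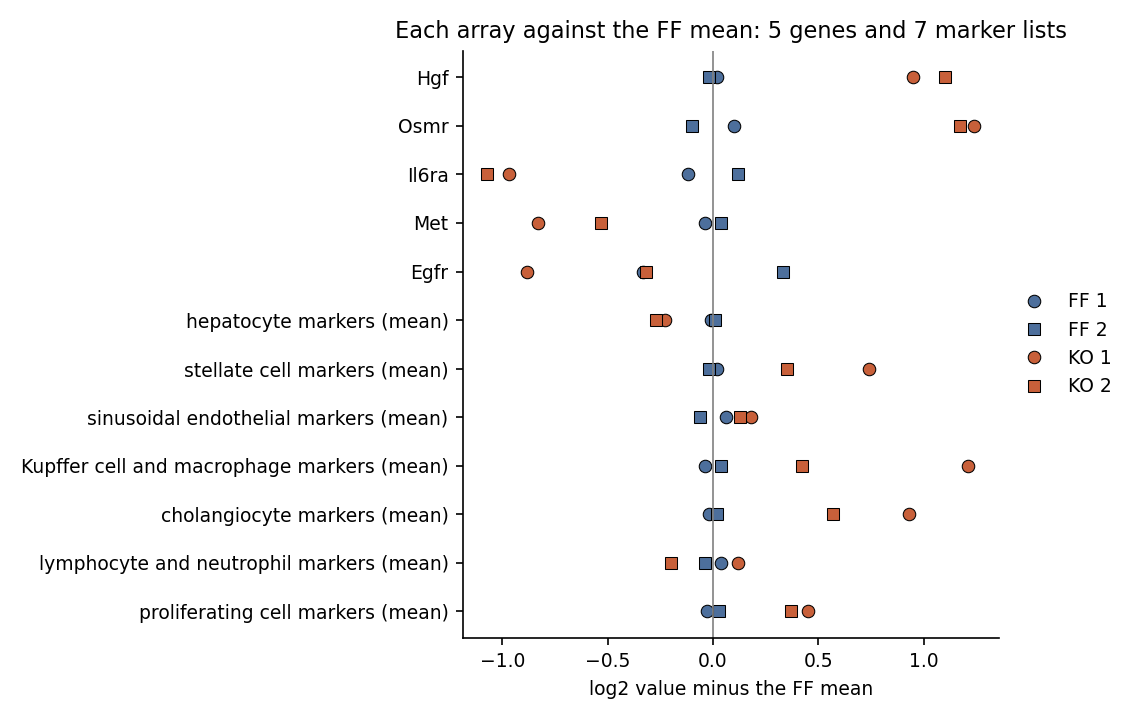
Log2 value of each array minus the FF mean (horizontal axis) for 5 of the genes and for the mean over each of 7 cell type marker lists; circles are replicate 1 and squares replicate 2, blue FF and orange KO. Hgf (0.95 and 1.10), Osmr and Il6ra lie close together on the 2 KO arrays, as do hepatocyte (-0.23 and -0.27) and endothelial markers, while macrophage markers lie apart at 1.21 and 0.42.

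The genes nearest to each called gene were found by the Euclidean distance over the 4 arrays after the FF mean of each gene was subtracted. With so few arrays this measure mostly finds genes with a change of like size. For Hgf they were Epha2, an ephrin receptor kinase, Sat2, an acetyltransferase gene, and Nedd9, a scaffold of focal adhesions, at distances of 0.0305, 0.0573 and 0.116 and log2 fold changes of 1.04, 1.03 and 0.98. For Osmr they were Tsku, a secreted protein gene, Ephx1, which encodes microsomal epoxide hydrolase, and Snrpa1, a spliceosome component, at distances of 0.0821, 0.0931 and 0.115. For Il6ra they were Masp1, a protease of the lectin pathway of complement, Srd5a1, a steroid reductase gene, and Pts, an enzyme of tetrahydrobiopterin synthesis, at distances of 0.0640, 0.0660 and 0.0978.

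**Figure D5:**
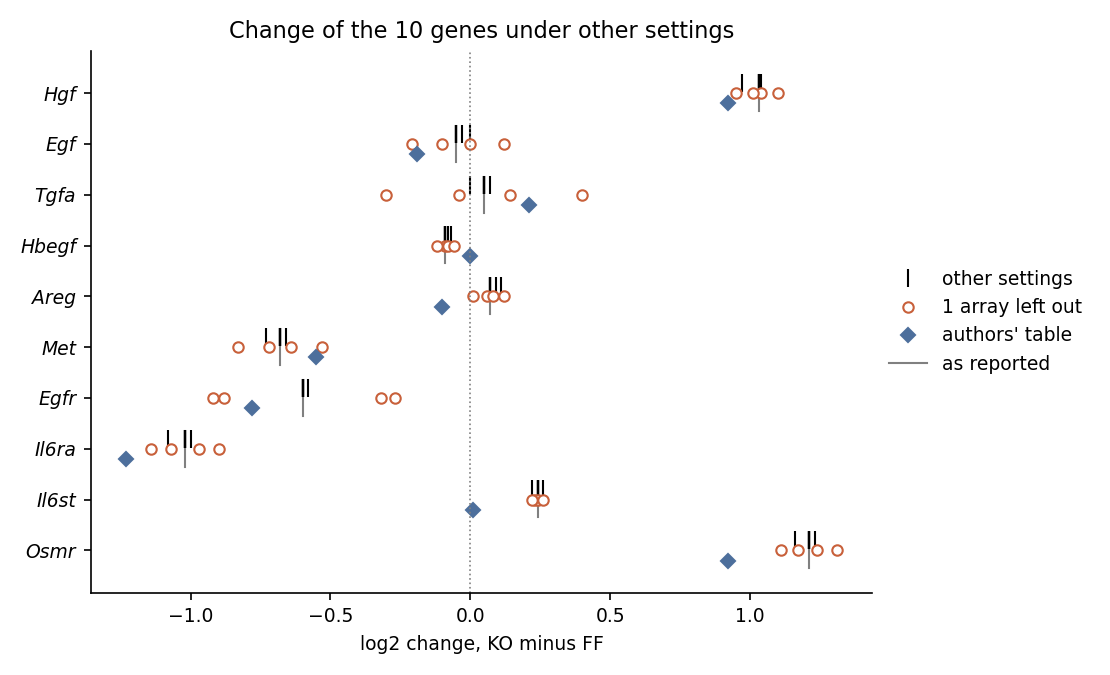
Log2 change, KO minus FF (horizontal axis), of the 10 genes as reported (grey line), with 1 array left out (open circles), in the authors' table (diamonds) and under the other settings (ticks). Hgf stays between 0.92 and 1.10, Osmr between 0.92 and 1.31 and Il6ra between -1.23 and -0.90, while Tgfa and Egf change sign when single arrays are left out.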

How the data were processed

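Liver RNA of 2 FF and 2 KO mice was amplified and labelled with biotin by a whole-transcript kit, per the labels' protocols. The deposited value table holds log2 values of 41345 probe sets, which the authors computed by RMA; the submitters' processing notes name Affymetrix Expression Console for this (versions not given in the sources used here). RMA equalises the arrays' distributions, so a change in total RNA cannot be seen. The authors' second deposited table, per the file headers on annotation na36 for mm10, gives gene symbols, log2 averages and, as a score per probe set, a signed linear fold change.

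Of the probe sets, 29945 had 1 symbol. For the 381 genes with several the brightest was used, which left 29432 genes with no filter on dim ones. KO was compared with FF in R 4.3.3 by limma's lmFit and eBayes (version 3.58.1, no block), with 5.79 total degrees of freedom, Benjamini-Hochberg adjustment over all genes and calls at an adjusted p under 0.05. Errors after ± are standard errors from limma, which gave each adjusted p. The labels name biological replicates, so p-values rest on the spread between these mice together with that over all genes. The fit was run on simulated data drawn from its own variance model, which is no check of the calls on these arrays. Promoter windows and coordinates are from RefSeq for GRCm38.p6; the probe annotation is for mm10.

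The 10 genes, the 7 pathway and 7 marker lists and the tests were chosen with earlier results of these data known. Genes named are the 10, Polr2m, up to 3 called genes a direction of each list (the 2 largest changes of a pathway list without calls), the 3 nearest genes of each called one, and others said to be picked afterwards; some genes under this rule are not reported here. Alternatives were median centring, cyclic loess, a filter on dim genes, averaged probe sets, all probe sets, variance trends, an adjusted p under 0.1, the replicate block, leaving out each array and the authors' table. No scan date or batch was given in the labels.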

Additional observations from a re-analysis of the deposited data

How the results depend on the processing

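Of the 10 genes, 2 rose and 1 fell, and these were the counts with median centring, cyclic loess, averaged probe sets, the variance trend and without the dimmer 50% of genes (which removed Egf and Areg). With all probe sets tested both were 0, and 2 fell with the robust variance trend or an adjusted p under 0.1, which added Met (adjusted p 0.0434 and 0.0926). Of the genes in the 7 pathway lists, 3 rose and 4 fell; all probe sets gave 0 and 0, and an adjusted p under 0.1 gave 8 rises. Of the cell type markers 2 rose and 0 fell; 6 rose with median centring or without dimmer genes, 5 with the variance trend, 7 with the robust one (where 1 fell), 9 at an adjusted p under 0.1 and 0 with all probe sets. Without any single array each of these 6 counts was 0 to 0, as 1 array then stands for a group and is taken to vary like the other group; limma called 0 of 29432 genes, with 3364 to 3958 at an unadjusted p under 0.05. Of all 29432 genes 522 were called, 649 to 975 with loess, centring or variance trends and 1235 at an adjusted p under 0.1. Without dimmer genes 850 of 14716 were called, or 5.78%, and with all probe sets 42 of 41345.

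Tgfa and Egf had no stable sign, at 0.00 for both with cyclic loess, and from -0.30 to 0.40 for Tgfa and from -0.21 to 0.12 for Egf without single arrays. No label says that a replicate number marks a shared litter, batch or day. The deviations of same-numbered arrays correlated at -0.00639 over all genes, which cannot exclude a pairing that affects only some genes. With the replicate block each of the 6 counts was 0 and 30 genes were called in all. What caused the changes under other settings was not tested. With the settings as reported, the smallest log2 change called in any gene was 0.72 in absolute size. Whether a change is called also depends on the spread of the gene, so this is no fixed limit. Smaller changes may have gone uncalled, and Egf, Areg and Il6 lay under background.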

Other observations

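Some pathway genes had large differences that did not pass the limma test, and they were picked after their values were seen. Myc, a transcription factor gene induced by growth factors, lay at 7.28 and 6.16 in FF and at 5.51 and 4.47 in KO, lower on both KO arrays, with a wide spread within each group (log2 fold change -1.73 ± 0.46, limma adjusted p = 0.143). St14, which encodes matriptase, a protease that can activate HGF, lay at 3.01 and 3.03 in FF and at 5.10 and 3.96 in KO. Its log2 fold change of 1.51 ± 0.35 had a limma adjusted p of 0.116, and the KO arrays were more than 1 apart. Spint2, an inhibitor of such proteases, was at 0.56 ± 0.11 (limma adjusted p = 0.0831). Among ligands of the ErbB receptors, Ereg for epiregulin was at 0.86 ± 0.18 and Nrg1 for neuregulin 1 at 0.63 ± 0.14, each higher on both KO arrays, with limma adjusted p of 0.0935 and 0.104. Erbb4, a receptor gene, was at 0.69 ± 0.12 (limma adjusted p = 0.0633).

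STAT3 targets of the acute phase did not move as one. Beside the rise of Lcn2, Lbp, the lipopolysaccharide-binding protein gene, lay at 8.48 and 8.38 in FF and at 7.20 and 7.63 in KO (log2 fold change -1.02 ± 0.17, limma adjusted p = 0.0562). Saa1, a serum amyloid gene, lay at 5.61 and 6.89 in FF and at 4.82 and 4.77 in KO (-1.45 ± 0.39, limma adjusted p = 0.146). Saa1 has a near-identical copy, Saa2, and probes of one may also bind RNA of the other. The macrophage receptor gene Marco lay at 4.10 and 4.01 in FF, at 6.40 on KO array 1 and at 4.48 on KO array 2.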
